A study of Mus musculus with 19 samples.

Results

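Lens dissected from mouse embryos at embryonic day E12.5 (3 arrays) was compared with lens at E11.5 (3 arrays), the step in which the cells at the back of the lens vesicle lengthen into primary fibres. The 6 arrays were chosen by their stage labels from a series of 19, which also holds 3 arrays of lens at E10.5, 4 of whole embryonic body for the lens (labelled only as E10.5 to E12.5), 3 of tooth germ and 3 of whole body for the tooth. All tissue came from wild type mice of the outbred ICR strain, with the plug day counted as E0.5, and lens was dissected by hand in PBS, kept in RNAlater and extracted on columns before labelled cRNA was hybridised. The series was made to find genes enriched in lens or tooth over the body and to rank candidate genes for cataract. The labels do not say whether the 3 arrays of a stage came from separate litters, pools of embryos or repeat extractions, so the p-values measure only the spread between these arrays.

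The lens forms when surface ectoderm over the optic cup thickens to a placode, sinks in and closes to a hollow vesicle. Cells at the front of the vesicle stay as a dividing epithelium, while cells at the back leave the cell cycle, lengthen until they fill the cavity and load their cytoplasm with crystallins, the soluble proteins that give the lens its refractive power. Fibre cells also build a specialised membrane skeleton, beaded filaments of a kind found in the lens and junctions that let ions and metabolites pass from cell to cell, and later lose their organelles.

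Of 18193 genes represented on the array, 13320 had enough signal to be tested. Levels are given as log2 of the deposited signal and differences as E12.5 minus E11.5 in log2 units, with the SE (standard error) that limma gave for all 19 arrays; a difference was called at a Benjamini-Hochberg adjusted p under 0.05 over all genes tested. Control probe sets with no target in these samples had a 95th percentile of 4.71, taken here as background. Arrays correlated at 0.946 to 0.992 within E11.5, 0.98 to 0.992 within E12.5 and 0.929 to 0.985 between the stages. E11.5 replicate 1 stood apart: it had the lowest correlations with the other arrays of its stage and the highest hybridisation control signal of the series (12.656, against 8.548 to 12.07 on the other arrays). It was the lowest of the E11.5 arrays for 303 of 402 genes called higher at E12.5 (75.4%) and for 7017 of all 13320 genes (52.7%), while E11.5 replicate 2 was the highest for 308 of the 402 (76.6%). E10.5 replicate 3 enters the comparison only through the shared estimate of the spread and carried crystallin signals at the E12.5 level. Crystallin results of this comparison are therefore given with and without it.

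At E12.5, 402 genes were higher than at E11.5 (3.02%) and 459 were lower (3.45%). The rises were the larger changes. Their median was 1.00 against -0.76 for the falls, 199 rises reached 2-fold (1.49% of genes tested) against 85 falls (0.638%), and 33 rises reached 4-fold against 9 falls. The 2 groups of arrays did not overlap for 390 of the 402 rises and for 444 of the 459 falls, where over all genes 7.9% lay wholly above and 11.2% wholly below. Few changes were switches from or to background: 7 rises had all 3 E11.5 arrays below it, and 5 falls had all 3 E12.5 arrays below it. The number of calls depends on the spread borrowed from the other groups. With the spread taken from the 6 arrays alone, 76 genes were higher and 63 lower, and of 101 called genes named by a rule given below 58 lost their call. Within arrays of low hybridisation control signal (2 of each stage) 396 genes were higher and 594 lower, and within those of high signal 372 and 71, where each stage has 1 array and the spread comes from E10.5 and body arrays. Without E11.5 replicate 1 the counts were 272 and 537, and without E12.5 replicate 3, which moved them most, 233 and 209. The count higher was 251 without E12.5 replicate 2, and the count lower 290 without E11.5 replicate 3. Of those 101 genes, 56 kept their call whichever of the 6 arrays was left out.

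**Figure D1:**
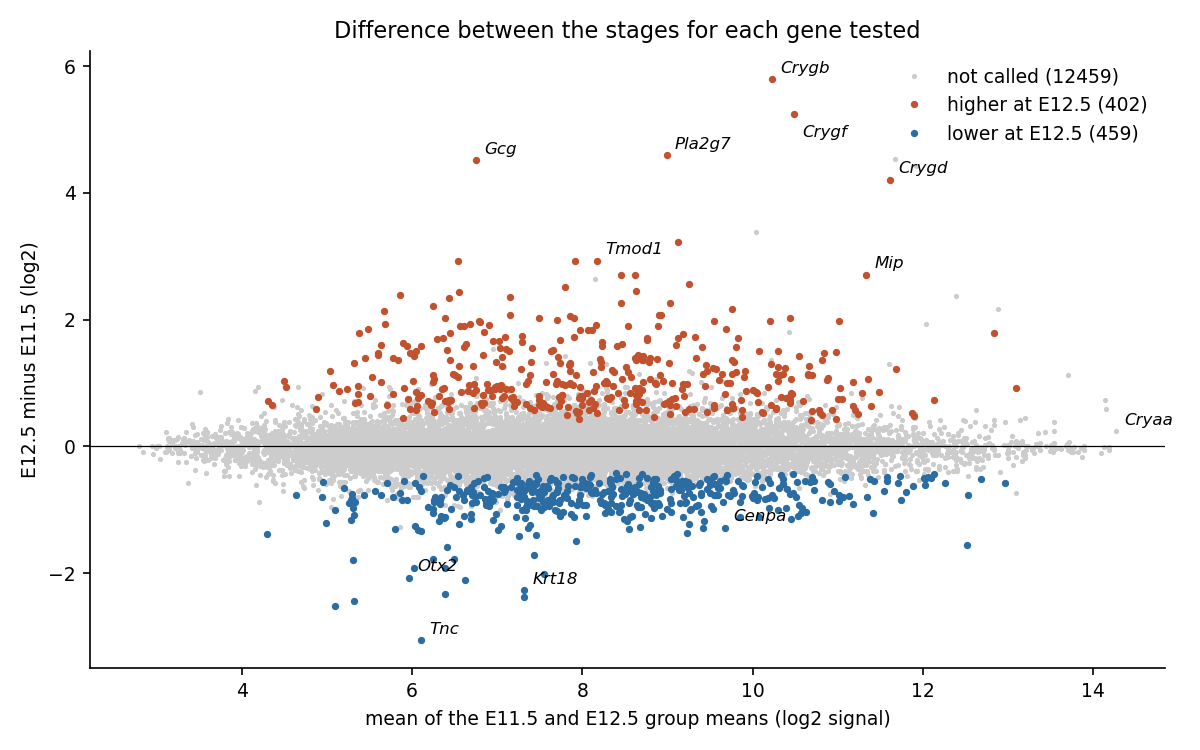
Each point is 1 of 13320 genes tested, with the mean of the E11.5 and E12.5 group means on the x axis (log2 signal) and E12.5 minus E11.5 on the y axis (log2). The 402 genes called higher are in orange and the 459 called lower in blue, and the upper edge of the plot is held by the gamma crystallins Crygb and Crygf, at 5.80 and 5.24, while the lowest point is Tnc at -3.05, where E12.5 lay at background.

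Crystallins had the highest median difference of the 36 gene lists. All 14 measured crystallins had a positive difference, with a median of 1.99 against -0.03 over all genes tested. In 13 of the 14 all E12.5 arrays lay above all E11.5 arrays, against 7.9% of all genes. Only Crygb, Crygd and Crygf of the list were called higher (3.02% of all genes), and no crystallin was called lower. These 3 are gamma crystallins, the small, densely packing class of the fibre cytoplasm. In bulk tissue, fewer cells of a type and less RNA per cell cannot be told apart, and the same holds for more cells and more RNA per cell.

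In stage order, Crygb had E11.5 signals of 4.90, 9.63 and 7.46 and E12.5 signals of 13.02, 13.16 and 13.22. The lowest E11.5 array was near background, the 3 E11.5 arrays were far apart, and the 3 E12.5 arrays were nearly equal and above all of them. The difference was 5.80 ± 1.62 (SE; limma adjusted p = 0.037), a fold of 55.78. Given the same way, Crygf had 6.92, 9.27 and 7.40 and then 12.90, 13.22 and 13.18, a difference of 5.24 ± 1.21 (adjusted p = 0.012). Crygd had 9.21, 10.28 and 9.04 and then 13.67, 13.72 and 13.79, a difference of 4.21 ± 0.98 (adjusted p = 0.012). In each of these genes E11.5 replicate 2 was the highest of its stage and no E11.5 array reached the E12.5 level. The gamma crystallin genes are close copies of each other, and the probe set of Crygf is of a type that can bind related transcripts, so signal may be shared among them.

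The other crystallins were not called. Cryga, another gamma crystallin, had 5.85, 12.32 and 10.07 and then 13.97, 13.88 and 13.98, the widest spread of the list at E11.5 (difference 4.53 ± 1.77, adjusted p = 0.16). Cryba4, a beta crystallin, had 7.69, 11.86 and 9.59 and then 14.08, 14.16 and 14.18 (4.43 ± 1.44, adjusted p = 0.08). Both had non-overlapping stages and neither was called. Cryaa, which encodes an alpha crystallin of the small heat shock family, had 13.91, 14.20 and 14.33 and then 14.39, 14.34 and 14.43, a difference of 0.24 ± 0.33 (adjusted p = 0.82). These Cryaa signals lay near the highest on the 6 arrays (20265.6 to 25043.5 on the linear scale), where a rise could be compressed. Whether it was compressed was not tested, so the small difference does not show that Cryaa stayed level. Cryab, the related alpha B-crystallin, was the member whose stages overlapped, with a difference of 0.17 ± 0.23.

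The crystallin calls varied with the arrays that gave the spread. E10.5 replicate 3 had a Crygb signal of 13.46 where the other E10.5 arrays had 4.03 and 3.89, and a Crygd signal of 13.80 where they had 7.87 and 8.14. With that array left out of the fit, a choice made after seeing the data, the differences between E12.5 and E11.5 were the same and 9 of the 14 crystallins were called higher: Crygb (SE 0.70, adjusted p = 4.8e-05), Crygd (SE 0.40, 3.1e-06), Crygf (SE 0.61, 3.3e-05), Cryga, Crygn, Crygs, Cryba2, Cryba4 and Crybb1. With the 6 compared arrays alone Crygd and Crygf were called (adjusted p = 0.01 and 0.012) and Crygb was not (0.051). With the 9 lens arrays alone, E10.5 replicate 3 included, none of the 14 was called, and with trended and robust moderation Crygb was not (0.099). In the full fit the call of Crygb was lost in 5 of the 6 fits that left out 1 of the compared arrays, all but that without E11.5 replicate 2 (adjusted p from 0.0799 to 0.141, the difference 4.59 without E11.5 replicate 1), and that of Crygd with E12.5 replicate 3 or E11.5 replicate 3 left out (0.0502 to 0.0503).

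Promoter sequence was available from RefSeq (GRCm38.p6) for 13 of the 14 crystallins, as 250 bases before to 50 after the start. The stretches shown end at the base before the start. They are given because the called gamma crystallins sit within a family of close copies and Cryba4 differs in the factor sites it carries. Capitals mark a MAF core site, TGCTGA, or a SOX site, ACAAT, on either strand; the 2 motifs do not overlap here. MAF and SOX proteins are factors known to bind crystallin promoters.
Crygb, chr1:65082291-65082480, minus strand: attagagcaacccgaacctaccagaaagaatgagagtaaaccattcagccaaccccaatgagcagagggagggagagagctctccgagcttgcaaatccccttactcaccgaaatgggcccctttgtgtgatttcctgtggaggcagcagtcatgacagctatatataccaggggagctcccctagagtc
Crygd, chr1:65063441-65063630, minus strand: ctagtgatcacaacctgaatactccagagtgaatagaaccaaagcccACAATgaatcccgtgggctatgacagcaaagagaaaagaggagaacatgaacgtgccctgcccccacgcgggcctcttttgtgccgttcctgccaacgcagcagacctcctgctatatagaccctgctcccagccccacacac
Crygf, chr1:65926332-65926521, plus strand: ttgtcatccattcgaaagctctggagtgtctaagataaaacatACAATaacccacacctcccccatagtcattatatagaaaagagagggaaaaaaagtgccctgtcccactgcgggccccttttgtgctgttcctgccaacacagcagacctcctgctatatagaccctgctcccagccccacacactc
Cryba4, chr5:112252519-112252708, minus strand: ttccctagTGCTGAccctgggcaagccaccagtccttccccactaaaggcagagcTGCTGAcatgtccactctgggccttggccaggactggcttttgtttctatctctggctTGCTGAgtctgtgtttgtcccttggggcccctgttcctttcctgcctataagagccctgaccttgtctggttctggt
Over these 190 bases, Crygd and Crygf were identical at 74% of aligned columns and Crygb and Crygd at 57.7%. Of the 13 promoters 9 held TGCTGA (69.2%), against 21.7% of 27025 genes with a promoter in the table. ACAAT was held by 6 (46.2%, against 34.4%), and a heat shock element, GAANNTTC, by 0 of 13 (9.04% of all genes). Such a match is a run of letters and not a measured binding site.

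**Figure D2:**
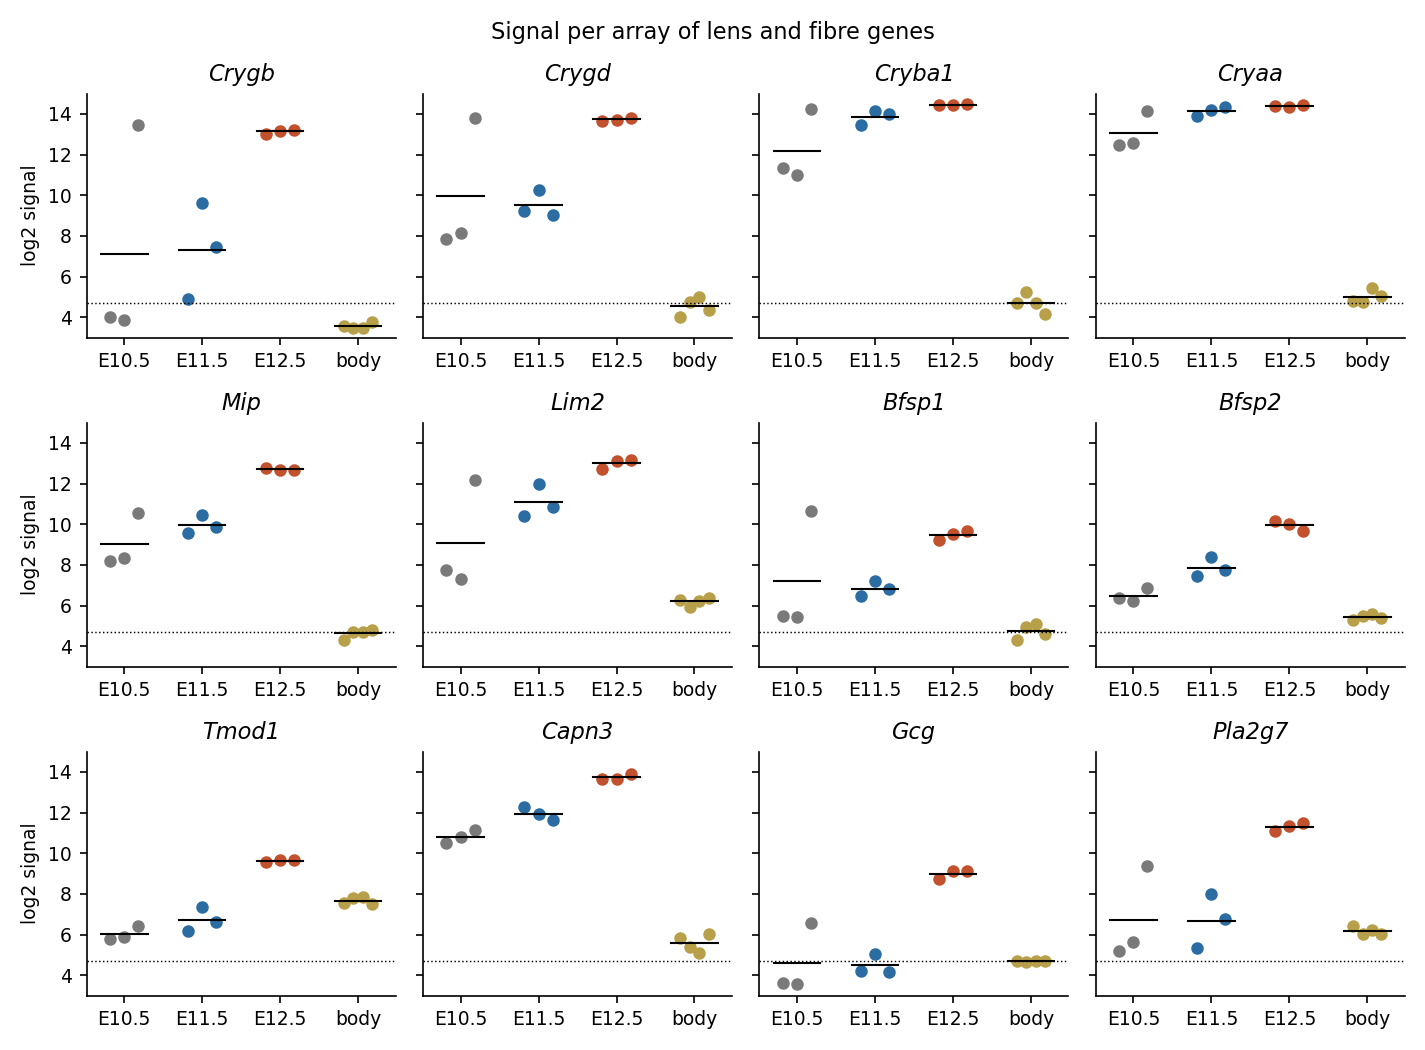
Log2 signal of each array (points) and group mean (bars) for 10 lens and fibre genes and for Gcg and Pla2g7 at the lens stages E10.5 to E12.5 (3 arrays each) and in whole body (4 arrays); the dotted line is background at 4.71. At E12.5 the 3 arrays of a gene lie close together, as in Mip (12.66 to 12.75), while 1 E10.5 array stands high for Crygb (13.46), Crygd (13.80), Lim2 (12.15) and Bfsp1 (10.66).

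Fibre membrane and junction genes moved less as a group than single members did. Of 12 tested, Mip rose and Slc2a3 fell, with a median of 0.05, where 6.46% of all genes tested were called. Mip encodes aquaporin 0, the water channel and adhesion protein that is the main membrane protein of fibre cells. It had 9.59, 10.47 and 9.87 and then 12.75, 12.66 and 12.67. The difference was 2.71 ± 0.40 (adjusted p = 0.00034), a fold of 6.56, and a second probe set gave 2.87. In the whole body Mip lay at 4.32 to 4.82, around background.

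Lim2, a membrane protein of the fibre cell junction, and Gja3, the gap junction protein connexin 46, had positive differences that were not called in the full fit. Lim2 had 10.39, 11.99 and 10.84 and then 12.71, 13.12 and 13.16 (1.93 ± 0.76, adjusted p = 0.17). Gja3 had 10.25, 11.45 and 11.16 and then 12.05, 12.32 and 12.39 (1.30 ± 0.42, adjusted p = 0.079, and 0.0498 without E11.5 replicate 2). The stages did not overlap in either gene. Without E10.5 replicate 3 both were called (adjusted p = 0.00022 and 0.0054). Slc2a3, the glucose transporter GLUT3, had 6.52, 7.81 and 7.48 and then 5.83, 6.64 and 5.88, a fall of -1.15 ± 0.26 (adjusted p = 0.0089) with overlapping arrays, lost without E12.5 replicate 3 (0.0585). Cdh2, N-cadherin, which joins fibre cells to each other, differed by 0.18 ± 0.25 (adjusted p = 0.84).

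The fibre cytoskeleton genes held more calls. Of 17 tested, Tmod1, Bfsp2, Capn3, Sptbn1, Ank2 and Sptan1 rose and Tpm1 fell, and the median was 0.43. Over all genes tested 3.02% were called higher and 3.45% lower. Tmod1 encodes tropomodulin 1, which caps the slow-growing end of actin filaments in the membrane skeleton. It had 6.17, 7.34 and 6.62 and then 9.57, 9.67 and 9.67, against 7.50 to 7.84 in the body. The E12.5 arrays were the highest of all of these. The difference was 2.93 ± 0.24 (adjusted p = 1.7e-06), a fold of 7.617, and exceeded the change of the step before, from E10.5 to E11.5, by 2.24 (adjusted p of the difference between the steps 0.016), a call lost with E11.5 replicate 1 or 3 left out (0.078 and 0.098).

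Bfsp2, or phakinin, is 1 of the 2 proteins of the beaded filament. It had 7.45, 8.37 and 7.77 and then 10.16, 10.03 and 9.65, a rise of 2.08 ± 0.23 (adjusted p = 2.7e-05). Its partner Bfsp1, or filensin, had 6.48, 7.20 and 6.80 and then 9.21, 9.53 and 9.66. The stages of Bfsp1 did not overlap, but the difference of 2.64 ± 0.83 was not called (adjusted p = 0.068). It was called without E10.5 replicate 3, which had 10.66 where the other E10.5 arrays had 5.51 and 5.44 (adjusted p = 1.1e-06), and with the 6 arrays alone (0.011).

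Capn3, a calcium-dependent protease with a lens form, had 12.27, 11.91 and 11.64 and then 13.65, 13.66 and 13.89, a rise of 1.79 ± 0.29 (adjusted p = 0.00074). The spectrins and ankyrin of the membrane skeleton rose by less. Sptbn1, a beta spectrin, had 10.90, 11.18 and 11.15 and then 12.14, 12.22 and 12.53 (1.22 ± 0.15, adjusted p = 9.2e-05); Ank2, which tethers spectrin to membrane proteins, rose by 1.02 and Sptan1, the alpha spectrin partner, by 0.48 (adjusted p = 0.0097 and 0.049). Tpm1, a tropomyosin that lies along actin, had 10.93, 10.33 and 10.44 and then 10.15, 9.56 and 9.49, a fall of -0.83 ± 0.19 (adjusted p = 0.0096), lost without E12.5 replicate 2 or 3 (0.0525 and 0.0705). Vim, the intermediate filament protein vimentin, differed by 0.25 (adjusted p = 0.34).

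Most transcription factors of fibre differentiation kept a level within the spread of the arrays. Of 13 tested, Hsf4 rose and Sox11 fell, with a median of 0.07, where 3.02% of all genes were called higher and 3.45% lower. Hsf4, the heat shock factor that acts in lens fibres and is mutated in some inherited cataracts, had 5.32, 5.18 and 4.94 at E11.5, just above background, and 7.11, 6.74 and 6.34 at E12.5. The stages did not overlap, and the rise was 1.59 ± 0.21 (adjusted p = 0.00011). Sox11, a SOX factor of the early eye, had 9.90, 9.82 and 10.01 and then 8.74, 8.50 and 8.42, a fall of -1.36 ± 0.13 (adjusted p = 4.8e-06).

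The factors best known for starting fibre differentiation did not pass the test. Prox1, needed for fibre cells to lengthen, had 10.11, 9.94 and 10.24 and then 10.36, 10.40 and 9.89 (0.12 ± 0.19, adjusted p = 0.86). Maf, an activator of crystallin genes, had E11.5 signals of 12.56, 12.65 and 12.66, all below the E12.5 arrays, the highest of which had 13.09 (0.41 ± 0.15, adjusted p = 0.13). Sox1, an activator of gamma crystallin genes, differed by 0.52 ± 0.30 and Pitx3, a factor of lens development, by -0.29 ± 0.18 (adjusted p = 0.43 and 0.48). Among 15 factors of the placode and lens epithelium, Lhx2, Sox2 and Hes1 fell, and 13 of the 15 differences were negative (median -0.48). Over all genes 3.45% were called lower and 7272 of 13320 differences were negative. Sox2 had 8.98, 8.71 and 9.17 and then 7.81, 8.17 and 7.82, a fall of -1.02 ± 0.26 (adjusted p = 0.022) that was lost with E12.5 replicate 1 or 3 or E11.5 replicate 3 left out (0.0737 to 0.101). Lhx2 fell by -1.09 (adjusted p = 0.01; 0.0783 without E12.5 replicate 3) and Hes1, a Notch target, by -0.83 (0.02; 0.132 and 0.0904 with E12.5 replicate 3 or E11.5 replicate 1 left out). Pax6, the master factor of eye development, differed by -0.25 ± 0.37, Foxe3, which keeps the epithelium dividing, by -0.62 ± 0.32, and Six3 by -0.42 ± 0.30 (adjusted p = 0.84, 0.34 and 0.55). Sox2 and Lhx2 are also expressed by the neural retina.

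RNA-binding proteins split in direction: of 19 tested, Caprin2 and Tdrd7 rose and Lin28a, Rbfox2, Rbms1 and Igf2bp1 fell. The shares over all genes were 3.02% called higher and 3.45% called lower. Tdrd7, a Tudor domain protein of cytoplasmic RNA granules whose loss causes cataract, had 9.30, 10.62 and 10.14 and then 12.11, 11.84 and 12.05 (1.98 ± 0.32, adjusted p = 0.00065). Caprin2, another RNA granule protein, had 7.69, 9.31 and 9.01 and then 10.82, 10.74 and 10.96, a rise of 2.17 ± 0.50 (adjusted p = 0.011; 0.0507 and 0.0502 with E12.5 replicate 3 or E11.5 replicate 1 left out). Rbfox2, a splicing factor, lost its call in 5 of the 6 fits with 1 array left out, all but that without E11.5 replicate 2 (0.0631 to 0.16). Lin28a, which blocks maturation of let-7 microRNAs in early embryonic tissue, had 7.33, 7.91 and 7.78 and then 5.32, 6.04 and 5.37 (-2.10 ± 0.28, adjusted p = 0.00015). No E12.5 array of Tdrd7, Caprin2 or Lin28a fell within the E11.5 range. Of 19 genes of organelle loss, autophagy and lysosomes, Plaat3 and Ctsd rose and none fell (median 0.21). Plaat3, a phospholipase that takes part in organelle breakdown in the lens, had 8.42, 8.90 and 8.34 and then 10.60, 10.53 and 10.48 (1.98 ± 0.32, adjusted p = 0.00065). Ctsd, the lysosomal protease cathepsin D, rose by 0.49 (adjusted p = 0.044), lost in 5 of the 6 fits with 1 array left out, all but that without E11.5 replicate 2 (0.0964 to 0.144). Dnase2b, the nuclease that later degrades fibre nuclei, was at background in all 6 arrays (3.90 to 4.26) and was not tested.

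**Figure D3:**
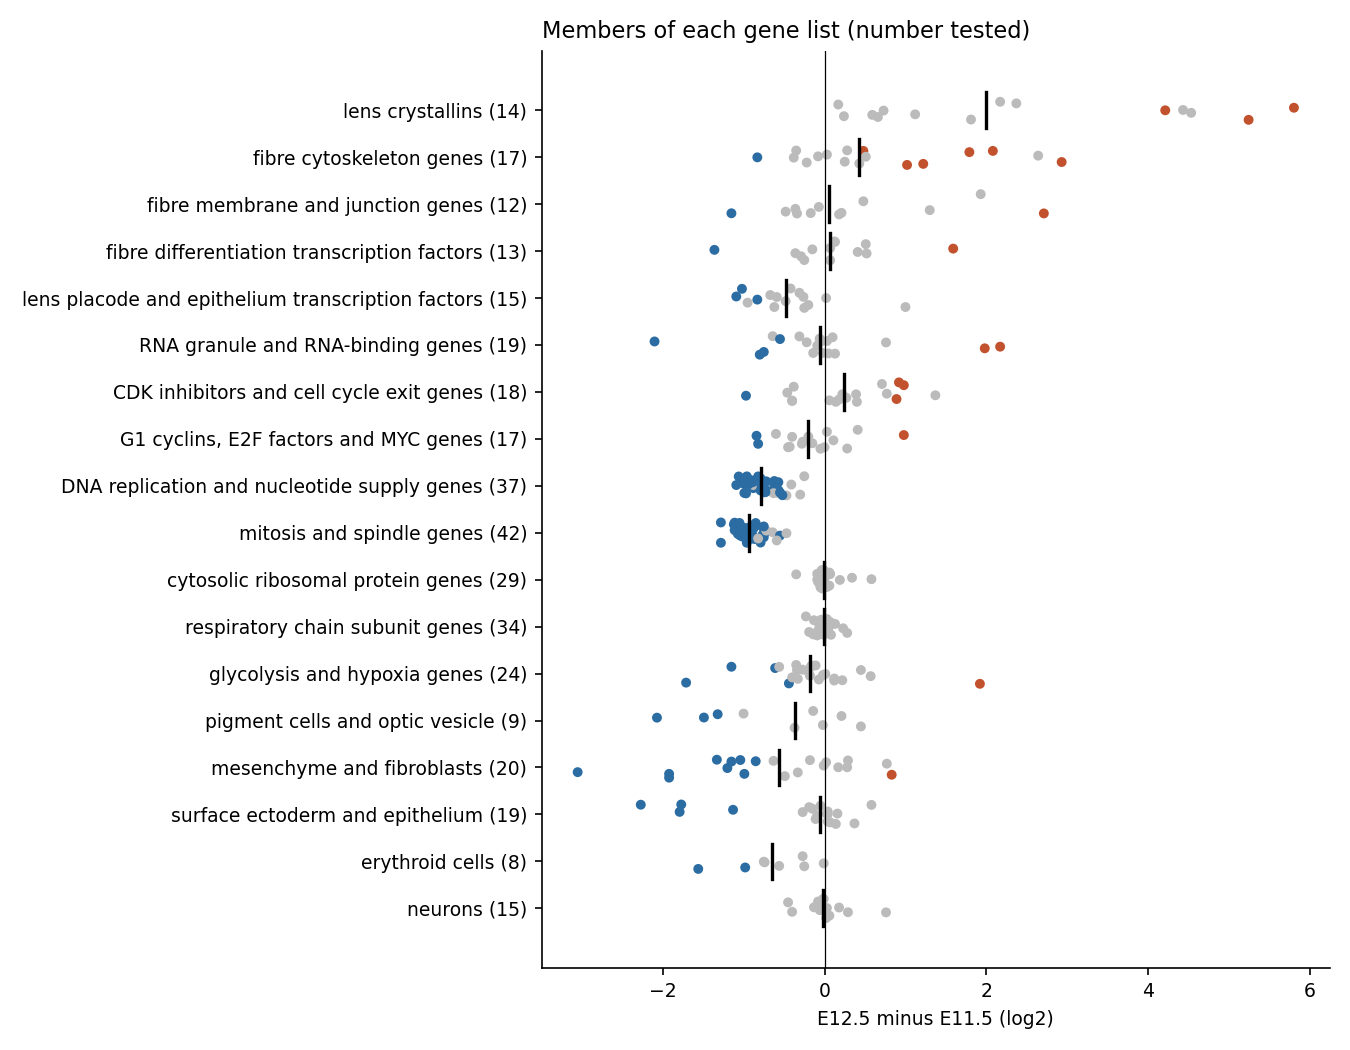
E12.5 minus E11.5 (log2, x axis) for each tested member of 18 gene lists, with the number tested in brackets; orange points were called higher, blue points lower and grey points not called, and black bars are list medians. The mitosis and DNA replication lists form tight clusters to the left of 0, with medians of -0.93 and -0.79, and the crystallins extend to 5.80 on the right.

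Genes of cell division fell together. Of 42 mitosis and spindle genes tested, 37 were called lower and none higher, and all 42 differences were negative, from -1.28 to -0.47 (median -0.93). Of 37 genes of DNA replication and nucleotide supply, 30 were called lower and none higher, and all 37 differences were negative, from -1.09 to -0.25 (median -0.79). For comparison, 3.45% of all genes were called lower and 7272 of 13320 had a negative difference. All E12.5 arrays lay below all E11.5 arrays for 39 of the 42 and 32 of the 37 genes, against 11.2% of all genes. The summed signal of the mitosis list was 15.382, 15.136 and 15.270 (log2) in the E11.5 arrays and 14.511, 14.346 and 14.131 in the E12.5 arrays, and in whole body it was 15.546 to 15.611. That of the replication list was 15.297, 15.240 and 15.341 and then 14.653, 14.574 and 14.421. E11.5 replicate 1, which stood apart for many rising genes, lay with its stage here. With the spread of the 6 arrays alone, 10 genes of each list were called lower, and within the arrays of high hybridisation control signal 2 of each, at medians of -0.85 and -0.73. The high set has 1 array of each stage, assumed to vary like the E10.5 and body arrays that give its spread.

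Within the replication list, Rrm2, the regulated subunit of ribonucleotide reductase, which makes deoxynucleotides, had 11.09, 11.04 and 11.11 and then 9.95, 10.17 and 9.85. Replicates lay within a narrow band at each stage and far from the other stage. The fall was -1.09 ± 0.14 (adjusted p = 9.2e-05), a fold of 2.136, and the body arrays lay at 11.76 to 12.11. Mcm5, a subunit of the replicative helicase, had 10.72, 10.73 and 10.96 and then 9.96, 9.79 and 9.66 (-1.0 ± 0.15, adjusted p = 0.00034). Pole, the catalytic subunit of the leading-strand polymerase, fell by -1.06 and Uhrf1, which guides copying of DNA methylation, by -1.03 (adjusted p = 0.006 and 0.00074). The helicase subunits Mcm3, Mcm4, Mcm5, Mcm6 and Mcm7 were called lower, by -0.62 to -1.0, and Mcm2 was not (-0.41, adjusted p = 0.26). Cdc6, Gins3, Gins4, Orc1, Pold1 and Rfc3 were the other members that were not called.

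Within the mitosis list, Cenpa, the histone H3 variant that marks centromeres, had 10.37, 10.30 and 10.29 and then 9.33, 9.05 and 8.73 (-1.28 ± 0.14, adjusted p = 2.7e-05), although 2 other probe sets of the gene gave 0.12 and -0.26, neither beyond its spread. Tpx2, which activates the spindle kinase encoded by Aurka, had 10.26, 9.86 and 10.05 and then 9.12, 8.65 and 8.55 (-1.28 ± 0.16, adjusted p = 7.2e-05). Birc5, of the chromosomal passenger complex, had 10.73, 10.63 and 10.51 and then 9.68, 9.55 and 9.29 (-1.11 ± 0.14, adjusted p = 9e-05). In these 3 genes E12.5 replicate 3 was the lowest array and the stages were clearly apart. Mki67, the marker protein of cycling cells, had 11.26, 10.18 and 10.58 and then 10.43, 9.46 and 9.24. Its stages overlapped, with E12.5 replicate 1 inside the E11.5 range, and its fall of -0.97 ± 0.27 (adjusted p = 0.039) was lost with E12.5 replicate 2 or 3 or E11.5 replicate 1 or 3 left out (0.0754 to 0.231). Kif20a, a cytokinesis motor, fell by -1.12 (adjusted p = 0.0092; 0.0746 without E12.5 replicate 3).

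The promoters of these genes, again from RefSeq (GRCm38.p6), are shown for 4 mitosis and 4 replication genes called lower that carry the letters known from cell cycle genes. In the first set capitals mark a CCAAT box, CCAAT, and a cell cycle homology region, TTTGAA, on either strand (ATTGG and TTCAAA on the other strand). Each stretch is the 120 bases before the start.
Cdk1, chr10:69352913-69353032, minus strand: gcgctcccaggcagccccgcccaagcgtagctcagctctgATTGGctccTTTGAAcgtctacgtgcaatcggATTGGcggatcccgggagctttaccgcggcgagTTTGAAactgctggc
Cdc20, chr4:118437344-118437463, minus strand: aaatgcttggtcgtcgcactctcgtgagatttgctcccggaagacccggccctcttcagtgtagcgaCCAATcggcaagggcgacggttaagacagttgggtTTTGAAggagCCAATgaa
Kif11, chr19:37376262-37376381, plus strand: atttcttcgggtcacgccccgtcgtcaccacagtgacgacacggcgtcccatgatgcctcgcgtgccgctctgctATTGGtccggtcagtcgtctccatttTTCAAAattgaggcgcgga
Top2a, chr11:99024190-99024309, minus strand: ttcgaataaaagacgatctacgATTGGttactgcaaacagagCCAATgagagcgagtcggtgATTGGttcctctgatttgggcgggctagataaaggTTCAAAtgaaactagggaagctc
Cdk1, the kinase that drives entry into mitosis, fell by -0.93, Cdc20, an activator of the anaphase-promoting complex, by -0.88, Kif11, a motor that separates the spindle poles, by -0.88, and Top2a, which untangles chromosomes, by -0.85. In all 4 the TTTGAA run lies nearer to the start than at least 1 CCAAT run. Over the 35 mitosis genes with a promoter in the table, 27 held CCAAT (77.1%, against 41.1% of 27025 genes) and 26 held TTTGAA (74.3%, against 20.2%).

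For the replication genes capitals mark an E2F site, GCGGGAA or GCGCGAA, or a CCAAT box, on either strand (TTCCCGC and ATTGG on the other strand). The E2F run and the CCAAT run share letters in Prim1.
Mcm6, chr1:128359706-128359825, minus strand: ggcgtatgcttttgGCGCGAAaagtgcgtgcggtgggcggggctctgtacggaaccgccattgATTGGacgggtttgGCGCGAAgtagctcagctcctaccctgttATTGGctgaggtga
Rpa2, chr4:132768240-132768359, plus strand: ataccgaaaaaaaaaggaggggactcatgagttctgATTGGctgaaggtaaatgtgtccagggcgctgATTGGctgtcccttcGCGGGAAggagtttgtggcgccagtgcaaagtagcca
Uhrf1, chr17:56303217-56303336, plus strand: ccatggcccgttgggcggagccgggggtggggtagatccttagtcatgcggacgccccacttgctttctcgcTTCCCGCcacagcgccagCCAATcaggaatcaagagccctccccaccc
Prim1, chr10:128015095-128015214, plus strand: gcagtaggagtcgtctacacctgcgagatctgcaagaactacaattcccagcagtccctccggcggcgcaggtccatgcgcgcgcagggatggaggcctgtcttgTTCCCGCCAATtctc
Mcm6, a helicase subunit, fell by -0.79, Rpa2, a subunit of the protein that coats single-stranded DNA, by -0.97, Uhrf1 by -1.03 and Prim1, the primase that starts each new strand, by -0.99. Of 30 replication genes with a promoter in the table, 19 held an E2F run (63.3%, against 6.86% of all genes) and 18 held CCAAT (60%).

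Regulators of the cycle did not move as one. Of 17 G1 cyclins, E2F factors and MYC genes, Max rose and E2f8 and Cdk2 fell (median -0.20). For comparison, 3.02% of all genes were called higher and 3.45% lower. Max, the partner of MYC proteins, was not called with E11.5 replicate 1 or E12.5 replicate 2 left out (0.0505 and 0.0603), nor E2f8 with E11.5 replicate 3 or E12.5 replicate 1 left out (0.0575 and 0.0666). Cdk2, a kinase of S phase, had 8.80, 9.28 and 9.32 and then 7.99, 8.57 and 8.37 (-0.82 ± 0.19, limma adjusted p = 0.01). Its call was lost with E12.5 replicate 1 or E11.5 replicate 3 left out (0.0599 and 0.0567). A second Cdk2 probe set gave -0.05 ± 0.15. Ccnd1, cyclin D1, differed by 0.03 ± 0.14 and Ccnd2, cyclin D2, by 0.41 ± 0.15 (adjusted p = 0.97 and 0.13). Of 18 CDK inhibitors and exit genes, Cdkn1a, Btg2 and Ccng1 rose and Gas1 fell (median 0.24). Cdkn1a, which encodes the inhibitor p21, had 6.79, 6.70 and 5.95 and then 7.48, 7.53 and 7.10 (0.89 ± 0.24, limma adjusted p = 0.031). Its call was lost with E12.5 replicate 1 or 2 or E11.5 replicate 3 left out (0.0937 to 0.163). A second Cdkn1a probe set gave 0.36 ± 0.24, and the call was lost with the mean of its probe sets. Btg2, an antiproliferative gene, rose by 0.98 and Ccng1, cyclin G1, by 0.92 (adjusted p = 0.048 and 0.017), the first lost unless the array left out was E11.5 replicate 2 (0.0776 to 0.158), the second lost with E12.5 replicate 2 or E11.5 replicate 1 left out (0.0951 and 0.0779). Cdkn1c, or p57, the inhibitor best known for fibre cell exit, had 12.06, 12.51 and 12.30 and then 12.70, 12.76 and 12.61, which did not overlap (0.40 ± 0.17, adjusted p = 0.22), and Cdkn1b, or p27, differed by 0.39 ± 0.37 (adjusted p = 0.69). Gas1, a growth arrest gene that also acts in Hedgehog signalling, had 10.94, 11.12 and 11.16 and was lower in all E12.5 arrays, the lowest of which had 9.89 (-0.97 ± 0.16, adjusted p = 0.00064).

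**Figure D4:**
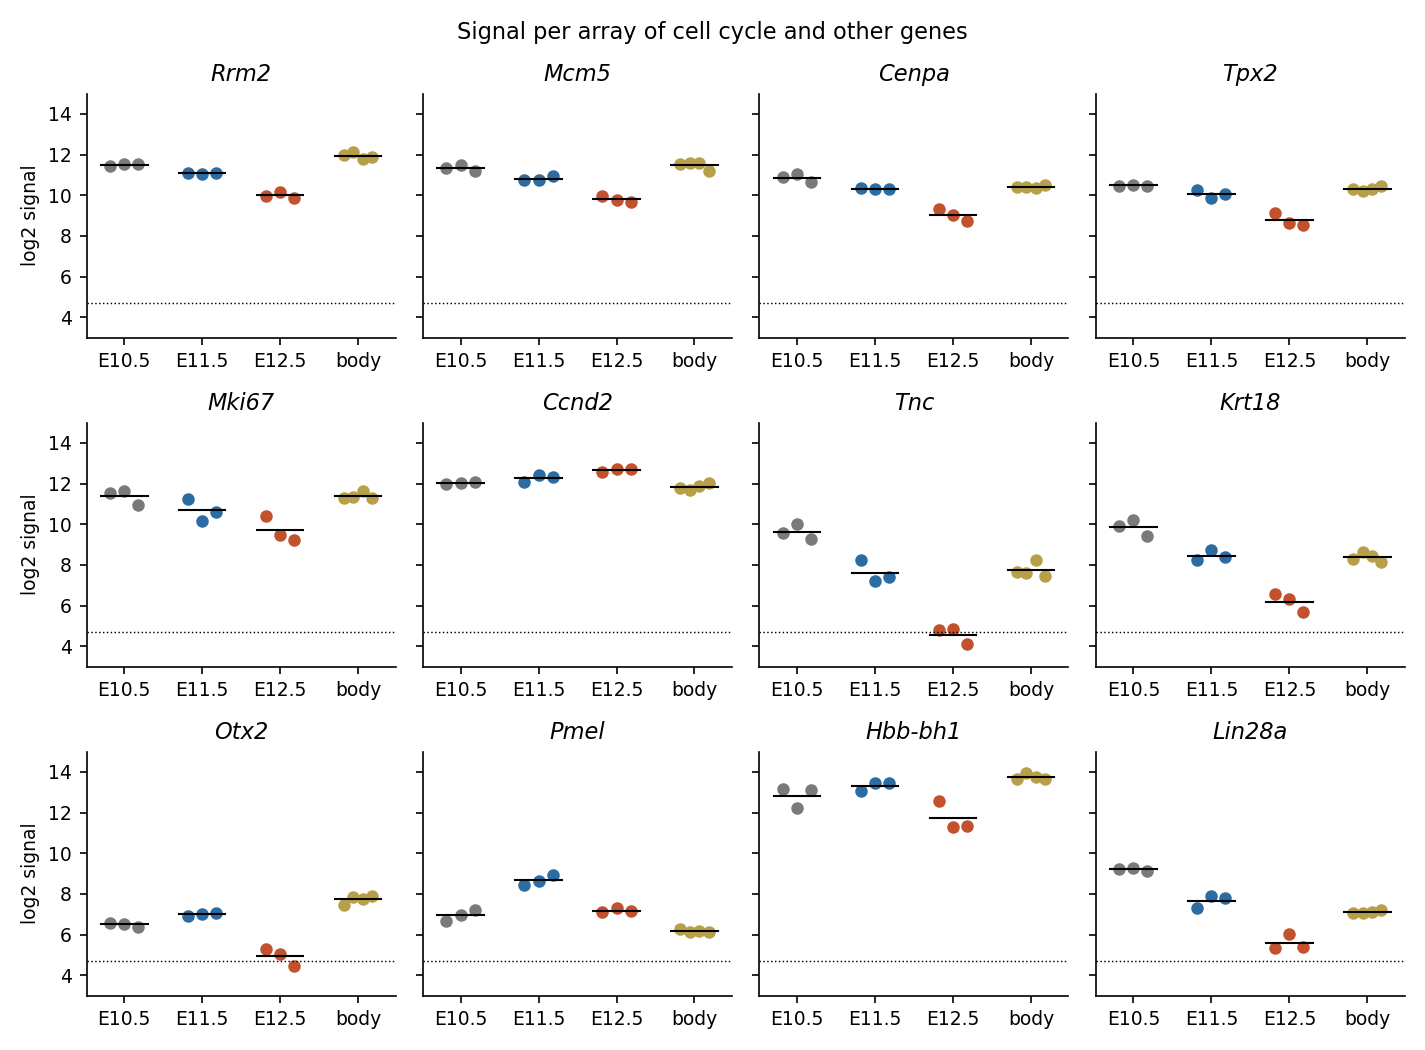
Log2 signal of each array (points) and group mean (bars) for 12 genes of cell division, other cell types and early tissue at the lens stages E10.5 to E12.5 (3 arrays each) and in whole body (4 arrays); the dotted line is background at 4.71. Rrm2, Cenpa and Tpx2 are lower at E12.5 in every array, Ccnd2 is not, and Tnc reaches background at E12.5 (4.12 to 4.83).

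Markers of cell types that surround or precede the lens were lower in part. Of 20 mesenchyme genes, 9 fell and Postn rose (median -0.56), where 3.45% of all genes were called lower and 3.02% higher. The summed signal of the list was 13.37 to 13.76 at E11.5, 12.91 to 13.25 at E12.5 and 14.97 to 15.14 in the body. The genes that fell were Tnc, Vcan, Twist1, Foxc2, Foxd1, Fn1, Foxc1, Prrx1 and Twist2. They are matrix genes (Tnc, Vcan, Fn1) and transcription factors of the mesenchyme around the eye. Tnc, the matrix protein tenascin C, had 8.24, 7.20 and 7.43 and then 4.78, 4.83 and 4.12 (-3.05 ± 0.26, adjusted p = 1.9e-06). The E12.5 arrays were at background, so the size of this fall is not a measured fold, and a second probe set of Tnc gave -0.40, the mean of both -1.72. The fibrillar collagen genes Col1a1, Col1a2 and Col3a1 were not called (-0.01, -0.33 and 0.29). Twist1, a factor of neural crest mesenchyme, had 7.75, 7.04 and 7.24 and then 5.27, 6.02 and 5.0 (-1.92 ± 0.27, adjusted p = 0.00025). Vcan, the proteoglycan versican, fell by -1.92 ± 0.23 (adjusted p = 4.9e-05), although 4 of its 8 probe sets, dimmer than the main one, gave values between -0.11 and 0.13. Another gave -0.21, and the call of Vcan was lost with the mean of its probe sets. The mesenchyme count was 5 without E12.5 replicate 3, and the call of Foxc2 (-1.33, adjusted p = 0.011) was lost there (0.0621). Postn, or periostin, rose by 0.83 (adjusted p = 0.025), lost with E12.5 replicate 1 or 2 or E11.5 replicate 1 left out (0.0889 to 0.114), and was 0.54 without E11.5 replicate 1.

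Of 19 markers of surface ectoderm and epithelium, Krt18, Dsp, Epcam and Krt8 fell and none rose (median -0.05). The 19 differences were 9 positive and 10 negative, and 3.45% of all genes were called lower. Krt18 and Krt8, the keratin pair of simple epithelia, had 8.25, 8.74 and 8.37 and then 6.55, 6.33 and 5.67 for Krt18 (-2.27 ± 0.23, adjusted p = 1.2e-05) and a fall of -1.13 ± 0.22 for Krt8 (adjusted p = 0.0035). Dsp, the desmosome protein desmoplakin, had 6.09, 6.29 and 6.20 and then 4.55, 4.49 and 4.18, below background, and Epcam, an epithelial adhesion molecule, had 6.93, 7.24 and 7.20 and then 5.56, 5.25 and 5.26. None of the 4 had overlapping stages. A second Epcam probe set gave 0.23, within its spread. Krt17, Trp63, Esrp1 and Grhl3 were below background in all 6 arrays, and Cdh1, E-cadherin of the lens epithelium, differed by -0.38 ± 0.18 (adjusted p = 0.27). The summed signal of the list was 10.26 to 10.47 at E11.5 and 9.71 to 9.81 at E12.5.

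Of 9 tested markers of pigment cells and the optic vesicle, Otx2, Pmel and Trpm1 were called lower and none higher (median -0.37). The share called lower over all genes was 3.45%. Pmel, the melanosome matrix protein, had 8.45, 8.63 and 8.93 and then 7.09, 7.30 and 7.14 (-1.49 ± 0.17, adjusted p = 3.2e-05). Otx2, a factor of the optic vesicle and pigment epithelium, had 6.92, 7.0 and 7.08 and then 5.27, 5.06 and 4.45 (-2.07 ± 0.19, adjusted p = 3.9e-06). Both stood higher in every E11.5 array. The other 6 tested members were not called. Tyr, Tyrp1 and Mlana, defining genes of pigment cells, were below background in all 6 arrays. The summed signal of the 9 tested members was 10.28 to 10.63 at E11.5 and 9.67 to 9.83 at E12.5. Of 13 retina progenitor markers, Lhx2, Sox2 and Sfrp2 fell, and 8 of the 13 differences were negative. These calls were lost in 1, 3 and 5 of the 6 fits with 1 array left out. The summed signal of the retina list was 13.21 to 13.64 at E11.5 and 12.87 to 12.92 at E12.5, while the member medians overlapped.

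Of 8 erythroid genes tested, Hbb-bh1 and Klf1 fell and all 8 differences were negative (median -0.65), where 3.45% of all genes were called lower and 7272 of 13320 differences were negative. Neither call held without E12.5 replicate 3. Hbb-bh1, an embryonic beta globin, had 13.03, 13.44 and 13.43 and then 12.57, 11.30 and 11.34 (-1.56 ± 0.34, adjusted p = 0.0083; 0.0599 without E12.5 replicate 3). Klf1, the erythroid Krüppel-like factor, fell by -0.98 (adjusted p = 0.017), lost with E12.5 replicate 3 or E11.5 replicate 2 or 3 left out (0.0554 to 0.101). The E12.5 arrays were the lower ones in both genes, and the body lay at 13.64 to 13.93 for Hbb-bh1. None of 14 endothelial, 15 macrophage or 15 neuronal markers was called. Of 14 muscle markers Tnni1 alone was called, where 3.02% of all genes were called higher. It rose by 1.01 ± 0.21 (limma adjusted p = 0.0066), while Myl1, Myh6, Tnnt2 and Ttn were below background in the 6 arrays. What part other cell types in the dissected tissue had in the changes of mesenchyme, ectoderm, pigment, retina and blood genes was not tested.

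**Figure D5:**
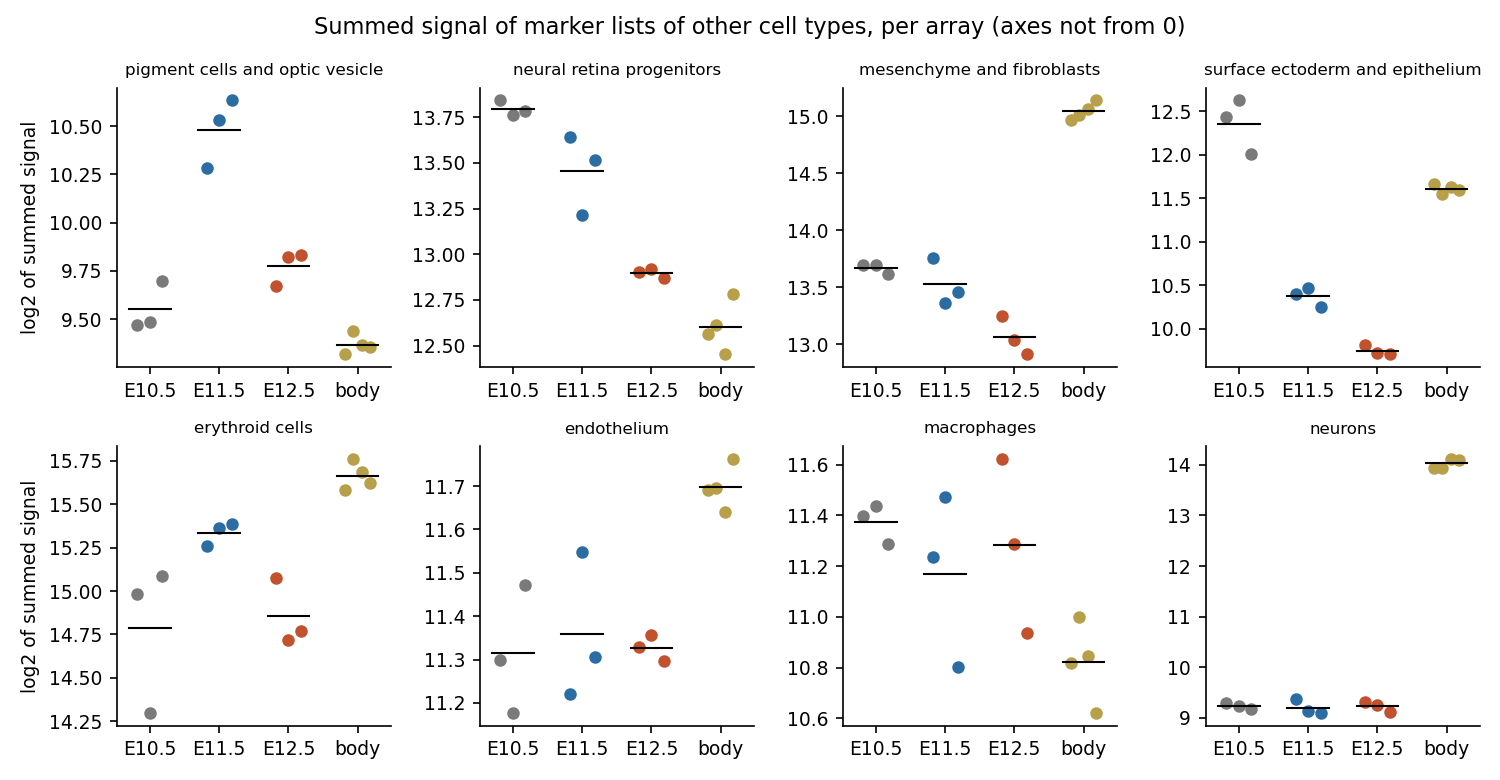
Log2 of the summed signal of the tested members of marker lists of 8 other cell types. Points are arrays and bars are group means, at the lens stages E10.5 to E12.5 (3 arrays each) and in whole body (4 arrays). Each panel has its own y axis, which does not start at 0. In this sum the E12.5 arrays lie below all E11.5 arrays for pigment, retina, mesenchyme, ectoderm and erythroid markers. The 2 stages overlap for endothelium, macrophages and neurons. A sum is weighted to the brightest members. In the median over members the stages overlap for retina, ectoderm and erythroid markers as well.

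Several of the largest rises were genes outside these lists. Gcg, the proglucagon gene of gut and pancreas, had 4.22, 5.07 and 4.17 at E11.5, around background, and 8.76, 9.12 and 9.13 at E12.5, against 4.68 to 4.71 in the body. E10.5 replicate 3 had 6.59 where the other E10.5 arrays had 3.64 and 3.58, so the signal well above background lay in that array and the E12.5 arrays. E11.5 replicate 2, at 5.07, lay just above background. The rise was 4.52 ± 0.50 (adjusted p = 2.7e-05), a size that is not a measured fold since E11.5 lay around background. Pla2g7, a secreted phospholipase that inactivates platelet-activating factor, had 5.32, 7.99 and 6.75 and then 11.09, 11.32 and 11.47 (4.60 ± 0.73, adjusted p = 0.00059). Ogn, the small matrix proteoglycan osteoglycin, had 6.55, 8.20 and 7.79 and then 10.71, 10.63 and 10.88 (3.22 ± 0.55, adjusted p = 0.0012). E11.5 replicate 1 was the lowest of its stage for Pla2g7 and Ogn, but not for Gcg, and no stages overlapped. Rcan2, a calcineurin inhibitor, rose by 2.92, Nrcam, a neuronal adhesion molecule, by 2.71, Pgam2, the muscle form of a glycolytic enzyme, by 2.70, Chrng, an acetylcholine receptor subunit of fetal muscle, by 2.57, and Tmcc3, Zfp365 and Vwa5a by 2.93, 2.52 and 2.45. Other probe sets of these genes gave 0.28 for Vwa5a, 0.73 for Rcan2, 0.00 and 3.05 for Chrng, and 2.21, 0.33 and 0.28 for Nrcam, and Zfp365 was 1.67 without E11.5 replicate 1. Adjusted p for these ran from 0.00014 for Vwa5a to 0.012 for Nrcam, whose call was lost without E11.5 replicate 1 (0.0505).

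The largest falls outside the lists were those of Cxcl14, Hemgn, Crym, Irx3, Crabp1 and Dusp9. Crym, mu-crystallin, is an enzyme-related thyroid hormone binding protein named as a crystallin in other animals; it had 8.90, 8.70 and 7.90 and then 6.37, 6.46 and 5.53 (-2.38 ± 0.35, adjusted p = 0.00033), against the direction of the true crystallins. Irx3, a homeobox factor, had 7.21, 7.58 and 7.85 and then 5.05, 5.60 and 5.03 (-2.32 ± 0.25, adjusted p = 1.7e-05). Crabp1, a retinoic acid binding protein, fell by -2.01 and Dusp9, a phosphatase of ERK kinases, by -1.78 (adjusted p = 0.0025 and 7.2e-05). Both Cxcl14 and Hemgn lay below background at E12.5, so the sizes of their falls are not measured folds. Cxcl14, a chemokine, had 7.91, 5.55 and 5.61 and then 4.09, 3.85 and 3.56; E11.5 replicate 1 was far above the rest, and the fall of -2.52 ± 0.60 (adjusted p = 0.014) was -1.75 and not called without it (0.0639), nor without E12.5 replicate 3 (0.0696). Hemgn, a gene of blood progenitors, was near background in E11.5 replicate 1 (4.45) and at 7.62 and 7.55 in the other E11.5 arrays; its call (-2.44, adjusted p = 0.022) was lost with replicate 2 or 3 of either stage left out (0.073 to 0.114).

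In the signalling pathways known to drive lens development, between 1 and 5 genes of a list were called, where 6.46% of all genes tested were called in either direction. The 1 call each among the Notch, basement membrane and integrin genes lies near that share. FGF from the vitreous side induces fibre cells, and of 18 genes of FGF receptors, ERK feedback and targets Fgfr3 rose and Dusp4 fell. Fgfr3 had 7.20, 9.27 and 8.90 and then 9.57, 10.59 and 10.39 (1.73 ± 0.48, adjusted p = 0.034), lost with E12.5 replicate 2 or 3 or E11.5 replicate 1 left out (0.135 to 0.156), and it was 1.10 without E11.5 replicate 1. Dusp4, a phosphatase induced by ERK that limits it, had 7.04, 6.96 and 6.82 and then 5.95, 5.77 and 5.77 (-1.11 ± 0.13, adjusted p = 5.4e-05). Of 31 BMP and TGF-beta genes, Id2 and Bmpr2 rose and Fst, Id3 and Smad6 fell. Fst, or follistatin, a secreted inhibitor of activin, had 6.32, 6.70 and 7.01 and then 4.90, 5.98 and 5.35 (-1.26 ± 0.27, adjusted p = 0.007). Id3, a target of BMP, fell by -0.91 (adjusted p = 0.0063; 0.051 without E12.5 replicate 3). The calls of Id2 (0.84), Bmpr2 (0.47) and Smad6 (-0.53) were lost in 4, 5 and 6 of the fits with 1 of the 6 arrays left out (0.0711 to 0.15, 0.0545 to 0.156 and 0.0594 to 0.197). Id2 kept its call without E11.5 replicate 2 and without E12.5 replicate 1, Bmpr2 without E11.5 replicate 2 alone.

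Of 29 Wnt genes, Wnt7b and Dkk3 rose and Dkk2, Dkk1 and Sfrp2 fell. Dkk3, a divergent member of the Dickkopf family, had 10.81, 10.44 and 10.44 and then 11.56, 11.35 and 11.55 (0.92 ± 0.19, adjusted p = 0.0064). Dkk2, a secreted Wnt inhibitor, had 8.15, 8.02 and 7.87 and then 6.82, 7.0 and 6.34 (-1.29 ± 0.30, adjusted p = 0.011; 0.0778 without E12.5 replicate 3). The 2 Dickkopf genes thus moved in opposite directions, each without overlap. Wnt7b, a ligand, rose by 1.00 (adjusted p = 0.019), lost with E12.5 replicate 2 or 3 or E11.5 replicate 3 left out (0.0752 to 0.0913), and the calls of Dkk1 (-0.73) and Sfrp2 (-0.58) were lost in 4 and 5 of those fits (0.0973 to 0.247 and 0.0947 to 0.147). Dkk1 kept its call without replicate 1 of either stage, Sfrp2 without E11.5 replicate 2. Of 21 Notch genes Hes1 alone was called. Of 17 Eph receptors and ephrins, Efna2 fell by -0.76 and Efna4 by -0.45 (limma adjusted p = 0.004 and 0.039). A second Efna2 probe set gave -0.34 ± 0.27, and the Efna2 call was lost with the mean of its probe sets. Efna4 kept its call only without E11.5 replicate 1 (otherwise 0.0546 to 0.2). Of 15 cadherins and catenins, Ctnna2, a neuronal alpha catenin, rose by 1.63 (adjusted p = 0.0039) and Ctnnd2 by 0.61 (0.012; 0.0513 without E12.5 replicate 3). Of 17 basement membrane genes Col4a6, a collagen of the lens capsule, rose by 0.78 (adjusted p = 0.019), kept only without E11.5 replicate 1 or without E12.5 replicate 2 (otherwise 0.0605 to 0.0877). Of 18 integrin and focal adhesion genes Itga2 rose by 0.75 (adjusted p = 0.013), lost with E12.5 replicate 2 or 3 or E11.5 replicate 3 left out (0.0698 to 0.0826).

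Whether a change belonged to this step rather than to the one before was tested as the difference between E12.5 minus E11.5 and E11.5 minus E10.5, both of which use the E11.5 arrays. Between E10.5 and E11.5, 203 genes were higher (1.52%) and 365 lower (2.74%). That difference was positive for 40 genes (0.3%) and negative for 20 (0.15%). Pmel was the most extreme negative case: its earlier step was 1.71 and its later step -1.49, a difference of -3.20 (adjusted p = 2.2e-05), so that it stood highest at E11.5. Otx2 had 0.49 and then -2.07 (adjusted p of the difference 0.00087), and Fst, Dkk2, Twist1 and Cdc42ep3 likewise had positive earlier and negative later values. Slc15a3, a transporter of histidine and peptides, went the other way, with -1.37 and then 1.18 (difference 2.55, adjusted p = 0.0023), and Lin7a, a scaffold protein of cell junctions, had -0.75 and then 2.0 (2.76, adjusted p = 0.0041). Pmel, Otx2, Slc15a3 and Lin7a kept this call whichever 1 of the 6 arrays or E10.5 replicate 3 was left out, and the other genes named for this difference lost it in at least 1 of those 7 fits. Krt8 and Epcam had negative values in both steps, the earlier one being larger: -3.23 and then -1.13 for Krt8, and -3.00 and -1.77 for Epcam. Dsp had -3.69 and -1.79, but its E12.5 arrays lay below background, so its later value is only a bound and its steps have no order. No crystallin and no gene of the replication or mitosis lists had a called difference between the steps. For crystallins, E10.5 replicate 3 here enters the E10.5 mean itself, which for Crygb was 7.13 with an SD of 5.49. The Crygb difference was 5.60 ± 2.80 (limma adjusted p = 0.74). Crystallin step differences without that array are not given, so the missing calls do not place the crystallin rise in either step. The median of the earlier step was -0.41 for the replication list, with 6 genes called lower, and -0.47 for the mitosis list, with 9.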

How the data were processed

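The authors deposited linear intensity values, 1 per probe set and array, from 5.4 to 25043.5, with array medians of 42.5 to 46.5. Per the submitters' processing notes they come from RMA, and affy 0.7 is listed without a role. No 2 arrays shared more than 2.04% of their values. The array has 45101 probe sets: GEO's annotation of the platform gives 34945 of them a single gene (34740 matched in RefSeq GRCm38.p6 by Entrez ID), 932 more than 1 gene and 9160 no gene, and 64 are control sets. A gene is the probe set with the highest mean over the 19 arrays, tested where it exceeded the median of all values (44.1) on at least 3 arrays. Other probe sets of a gene can differ from it and are given for some genes only. Log2 was taken, with no further normalization, and limma 3.58.1 (R 4.3.3) fitted 1 mean per group over the 19 arrays; tests were two-sided. The number of arrays limits the precision. On simulated arrays with 50 genes changed per size, 22% of differences of 0.5, 76% of 1, 96% of 2 and 100% of 3 (log2) were recovered, with 4 false calls. The simulated noise was normal and independent between arrays, with 1 SD per gene for all groups. It held no arrays that stand apart and no shared deviations, so these shares need not hold for the real arrays.

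The labels number the arrays 1 to 3 in each stage. Deviations from the stage means correlated at 0.61, 0.64 and 0.4 between E11.5 and E12.5 arrays of the same number. Between arrays of different number they correlated at -0.6 to 0.35. Replicate 1 also had the highest hybridisation control signal of each of these stages (12.656 and 12.07). The labels state no pairing, and what links the same-numbered arrays was not tested. The main fit has no block, and a fit with the replicate number as a block is an alternative.

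Genes were named by rule: the 15 largest rises and falls without overlap, up to 4 called members per list with up to 2 opposing members (2 where none was called), 24 genes always named (1 of them is not reported here), and the 6 largest differences between the steps in each direction. Other list members are named where a list is enumerated, chosen after their values were seen. For these members, crystallins apart, fits with 1 array left out are not given gene by gene. The comparison, the members and the 36 gene lists were chosen with earlier results of these data known. Promoters were matched for 527 of 680 tested list members.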

Additional observations from a re-analysis of the deposited data

Results flagged for a closer look

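For 19 named genes the change from E11.5 to E12.5 differed from the change from E10.5 to E11.5 by limma's test of the difference between the steps. The difference was positive for Gcg (4.64), Tmcc3 (3.37), Lin7a (2.76), Slc15a3 (2.55), Pgm5 (2.40), Fam89a (2.30), Tmod1 (2.24), Krt8 (2.10), Dsp (1.90, against E12.5 levels below background), Sptbn1 (1.43) and Epcam (1.24). It was negative for Pmel (-3.20), Fst (-2.81), Dkk2 (-2.60), Otx2 (-2.57), Twist1 (-2.49), Cdc42ep3 (-2.48), Trpm1 (-2.14) and Irx3 (-2.07). Leaving out E10.5 replicate 3 kept 18 of the 19, and ended the call of Tmcc3 (3.08, adjusted p = 0.062); Gcg was then 3.64 (4.5e-05). In the 7 fits that each left out 1 of the 6 compared arrays or E10.5 replicate 3, only Lin7a, Otx2, Pmel and Slc15a3 were called every time, and the other genes lost the call in 1 to 6 of the fits, Epcam most often (adjusted p from 0.068 to 0.19) and Fam89a and Fst without E11.5 replicate 3 alone (0.087 and 0.075).

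In whole body, 1 of the 4 arrays stood apart for 2 of 15 genes whose body levels were compared, Gcg (4.71, the highest, in a range that starts at 4.68) and Mki67 (11.62, in a range that starts at 11.28). Chance alone gives about 1 such array in 20 groups, and the Gcg levels all lie at background.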

How the results depend on the processing

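All 861 called genes kept the sign of their difference under each of 23 alternatives (801 of 801 under the stricter filter). Alternatives that change only the spread, the filter or a block leave the difference as it was, so the sign could not change there. Crygb, for example, stayed at 5.80 with the 6 compared arrays alone and without E10.5 replicate 3. Of the 101 called genes named by rule, 28 lost the call under none of the alternatives. With the 6 compared arrays alone, 76 genes were higher and 63 lower; with the 9 lens arrays alone, 139 and 172; with array weights, 801 and 1325; and within the arrays of high hybridisation control signal (1 of each stage, with the spread of E10.5 and body arrays), 372 and 71. Leaving out 1 array gave 233 to 567 higher and 209 to 537 lower. The 60 genes whose change differs between the 2 steps became 5 with the 9 lens arrays, 13 with these and the replicate block, 431 with array weights, 145 with the control signal set as a block, 329 within the high set, and 19 (without E11.5 replicate 3) to 80 (without E10.5 replicate 3) with 1 array left out. The 3 called crystallins became 0 with the 9 lens arrays, with or without the replicate block, 2 with the 6 arrays alone or with trended and robust moderation, 8 with array weights, 7 with the control signal block, 9 within the high set, 10 within the low set, 9 with the replicate block in the 6 arrays alone, and 1 to 9 with 1 array left out. Lower replication genes (30) fell in number to 10 with the 6 arrays, 18 with the 9 and 2 within the high set, and lower mitosis genes (37) to 10, 24 and 2. Lower mesenchyme genes (9) were 5 with the 6 arrays, 5 with the 9, and 5 to 10 with 1 array left out. The cause of these differences was not tested.

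Ccnd1 and Cdkn1b, which were not called, changed sign. Ccnd1 was -0.03 within the high set and ran from -0.03 to 0.08 with 1 array left out (-0.00 without E11.5 replicate 3), and Cdkn1b ran from -0.03 (without E11.5 replicate 1) to 0.62. With the replicate numbers as a block for the 6 arrays in the fit over 19, 561 genes were higher and 597 lower. This block changed no named call except that Rps6 and Mrc1 were gained. With the replicate block in the 6 arrays alone, 347 were higher and 342 lower, 16 named calls were lost, and Lim2, Gja3 and Bfsp1 were called (adjusted p = 0.017, 0.022 and 0.0055). The number of arrays, 3 in each stage, limits the precision, and signals near 4.71 carry no order.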

Other observations

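Metabolic and growth lists differed in their calls between E11.5 and E12.5, where 6.46% of all genes tested were called in either direction. None of 34 respiratory chain subunit genes was called by limma (median -0.01), nor any of 29 cytosolic ribosomal protein genes (median -0.01) or 19 cholesterol synthesis genes (median 0.21). Of 24 glycolysis and hypoxia genes, Ndrg1 rose and Slc16a3, Slc2a3, Ldha and Aldoa fell. The summed signal of that list was 15.38 to 15.48 (log2) at E11.5 and 15.14 to 15.23 at E12.5. Ndrg1, a gene induced by low oxygen, had 6.25, 6.06 and 5.51 and then 7.56, 8.04 and 7.98 (1.92 ± 0.33, adjusted p = 0.0014), while Slc16a3, the lactate exporter MCT4, had 9.22, 8.21 and 7.43 and then 6.84, 6.65 and 6.23 (-1.71 ± 0.30, adjusted p = 0.0016). Ldha, lactate dehydrogenase A, fell by -0.61 (adjusted p = 0.0021). Both kinds of change occurred without overlap between the stages in these 3 genes.

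Of 21 glutathione and antioxidant genes, Gss, glutathione synthetase, had 7.84, 8.40 and 8.34 and then 9.48, 9.57 and 9.65 (1.38 ± 0.26, adjusted p = 0.0025). Gsta4, a glutathione transferase, fell by -0.90 (adjusted p = 0.0076; 0.063 without E12.5 replicate 3) and Gpx3 by -0.67 (0.047; kept only without E11.5 replicate 3 or without E12.5 replicate 2, otherwise 0.0974 to 0.242). Of 24 ribosome biogenesis genes 22 differences were negative, where 7272 of 13320 were negative over all genes. Gar1 was the 1 called (-0.47, limma adjusted p = 0.04), near the 3.45% of all genes called lower. Its call was kept only without replicate 2 of either stage (otherwise 0.0672 to 0.207). The immediate early genes Jun and Dusp1 rose by 0.91 and 1.00 (adjusted p = 0.042 and 0.046), each kept only without E11.5 replicate 2 (otherwise 0.0762 to 0.185 and 0.0575 to 0.183) and at 0.60 and 0.52 without E11.5 replicate 1. Of 17 imprinted growth genes Peg3 alone was called, where 3.45% of all genes were called lower. It fell by -0.55 (limma adjusted p = 0.018). The call was lost in 2 of the 6 fits, those that left out E12.5 replicate 2 or E11.5 replicate 3 (0.0675 to 0.122).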
